A study of Homo sapiens with 12 samples.

Results

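The response of U251, an established human glioblastoma cell line, to over-expression of PEPD was read from RNA sequencing counts. Its members are the 6 U251 libraries among the 12 of the series: 3 from cells labelled PEPD-OE (PEPD over-expression, by the wording of the title), and 3 from cells labelled NC, an abbreviation that the labels do not expand. The other 6 libraries are the same 2 groups of T98G, another glioblastoma line, and serve here only to show where U251 differs. The labels give neither the construct nor how the cells were made, whether the line is a clone or pooled cells, nor the time after the change. They do not say whether replicates were separate cultures, so the p-values measure a spread between these libraries that was pooled over genes and may be technical. All genes of the count table entered the comparison, and 7507 of 63241 passed the filter on low counts and were tested.

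PEPD encodes prolidase, a peptidase of the cytosol that splits dipeptides with proline or hydroxyproline at the end and so returns these amino acids from the breakdown of collagen and other proteins. Growth factor receptors such as EGFR, which is often amplified in glioblastoma, signal through the kinase ERK, which induces immediate early genes and its own inhibitors. YAP, held back by the Hippo kinases, drives matrix and adhesion genes with TEAD factors. ATF4 is made when amino acids are short or the endoplasmic reticulum is stressed and raises amino acid transport, amino acid synthesis and tRNA charging. Interferons act through STAT and IRF transcription factors on genes with an interferon-stimulated response element (ISRE).

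The U251 libraries held 683172 to 924204 counts, so that 3 counts correspond to between 3.25 and 4.39 CPM, the count per 1000000 counts of that library. Levels below are CPM scaled by the TMM method of edgeR, listed by replicate 1, 2 and 3. Genes with an exon that overlaps an exon on the other strand (GENCODE release 29, GRCh38) took 68.8% to 70.1% of all counts in each library. Such a gene is named after the word opposite with its partner of most counts, where that held at least 10, because the strand setting of the counting is not given in the sources used here and reads of the partner may be counted under its name. Counts under both names of a locus could be far apart, as with 276257 for BEST1 against 5790 for its partner FTH1. TUBA1B-AS1 held 102014 against 1534 for TUBA1B. In the pairs of a noncoding and a coding gene described below, the noncoding name held more counts in 266 of 335. Few counts under a partner's name thus do not tell whose reads stand under the named gene. Whether counts went to the wrong strand was not tested. If they did so throughout, values of genes without a partner would be residual reads and no plain expression levels, PEPD included. PEPD-OE replicate 1 stood apart: its counts differed from those of PEPD-OE replicates 2 and 3 with a chi-square per degree of freedom of 2.46 and 3.002, against 1.48 to 1.60 for the other pairs within a group. Mitochondrially encoded genes took 5.19% of its counts, against 3.51% and 3.44% in PEPD-OE replicates 2 and 3 and 5.17%, 4.35% and 4.75% in NC. Counts of members of each main gene group are therefore also given without this library. Glioma and neural stem markers (VIM, NES, CD44, SOX2, GFAP and EGFR) were all counted in U251, while PTPRZ1 had 16 counts in all. Of 8 macrophage markers 4 had 0 counts (AIF1, ITGAM, TYROBP, C1QA), and the list summed to 3.68 to 10.2 CPM in PEPD-OE and 2.38 to 10.05 CPM in NC. Endothelial markers had 2 of 6 at 0 (PECAM1, VWF) and summed to 14.1 to 30.7 against 10.7 to 17.6 CPM. Epithelial markers had 1 of 9 at 0 (EPCAM) and summed to 90.9 to 194.7 against 127 to 173 CPM, most of it CLDN4, KRT8 and KRT18. Fibroblast and pericyte markers had 1 of 8 at 0 (COL3A1) and summed to 310.3 to 419 against 486 to 536 CPM, nearly all of it COL1A2. Neuron and oligodendrocyte markers had 1 of 7 at 0 (MOG) and summed to 47.9 to 51.2 against 22.6 to 39.3 CPM; SYT1, of synaptic vesicles, rose among them (log2 fold change 1.21, SE 0.34, adjusted p = 0.00991), a call lost without PEPD-OE replicate 2 (adjusted p = 0.0539), without NC replicate 1 (adjusted p = 0.107) and without NC replicate 2 (adjusted p = 0.116). The part of these markers in the results below was not tested.

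PEPD itself (chromosome 19, 33386950 to 33521794, minus strand, no opposite exon) stood at 173, 169.7 and 190.3 CPM in the PEPD-OE libraries and at 13.5, 6.56 and 9.19 CPM in the NC libraries. Every PEPD-OE library lay far above every NC library. PEPD changed by 4.16 on the log2 scale (SE 0.25, edgeR quasi-likelihood test with Benjamini-Hochberg adjustment, adjusted p = 2.29e-45). The NC values rest on 11, 5 and 7 counts.

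Of the 7507 genes tested, 687 (9.15%) changed at an adjusted p under 0.05 in edgeR, 323 of them higher (4.3%) and 364 lower (4.85%) in PEPD-OE. Most changes were small: 99 genes rose and 68 fell by at least 2-fold, and 72 genes (0.959%) passed when the null was a change of up to 0.5 on the log2 scale. The median log2 fold change over all genes tested was 0.00095, with quartiles at -0.24 and 0.25. In 641 of the 687 the 3 libraries of one group did not overlap those of the other, as was so for 23.9% of all genes tested. DESeq2 called 303 genes (4.04%), all of them among the 687. Some genes, LIF among them, had no adjusted p in DESeq2 and count as not called in all its numbers. Each library left out in turn gave 356 to 675 calls. The counts moved by over 1.5 times without PEPD-OE replicate 2 (356), NC replicate 1 (370) or NC replicate 3 (387), and 206 genes were called in each of the 6 fits with 1 library left out. In bulk RNA, fewer cells of a type and less RNA per cell cannot be told apart.

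**Figure D1:**
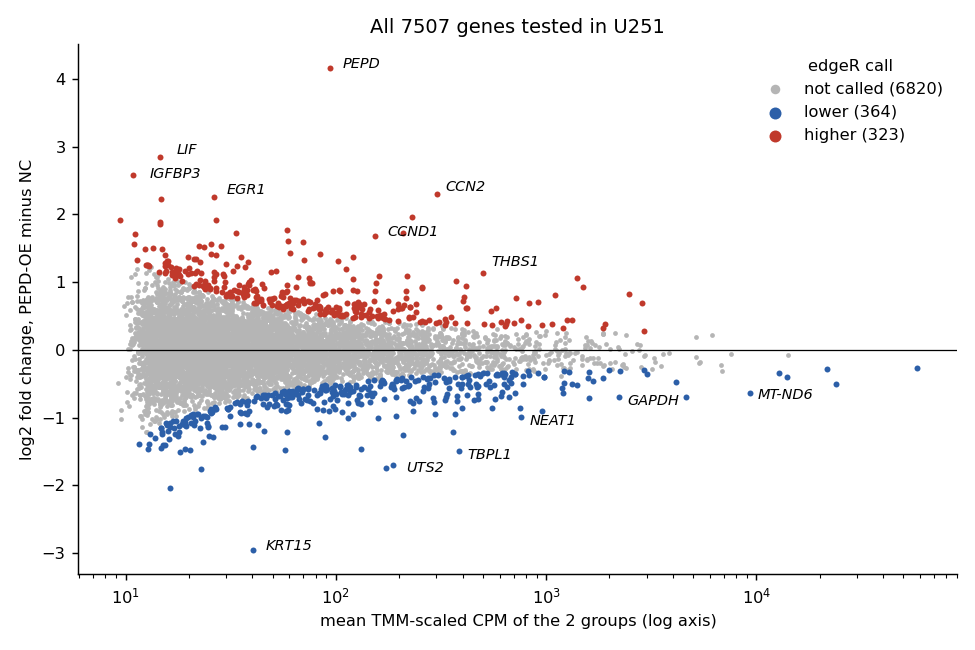
Each point is 1 of the 7507 genes tested in U251, by its mean TMM-scaled CPM over the 2 groups (log axis) and its log2 fold change in PEPD-OE against NC; red and blue mark the 323 higher and 364 lower calls of edgeR. PEPD lies alone at 4.16, and most calls lie within 1 log2 unit of 0.

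**Figure D2:**
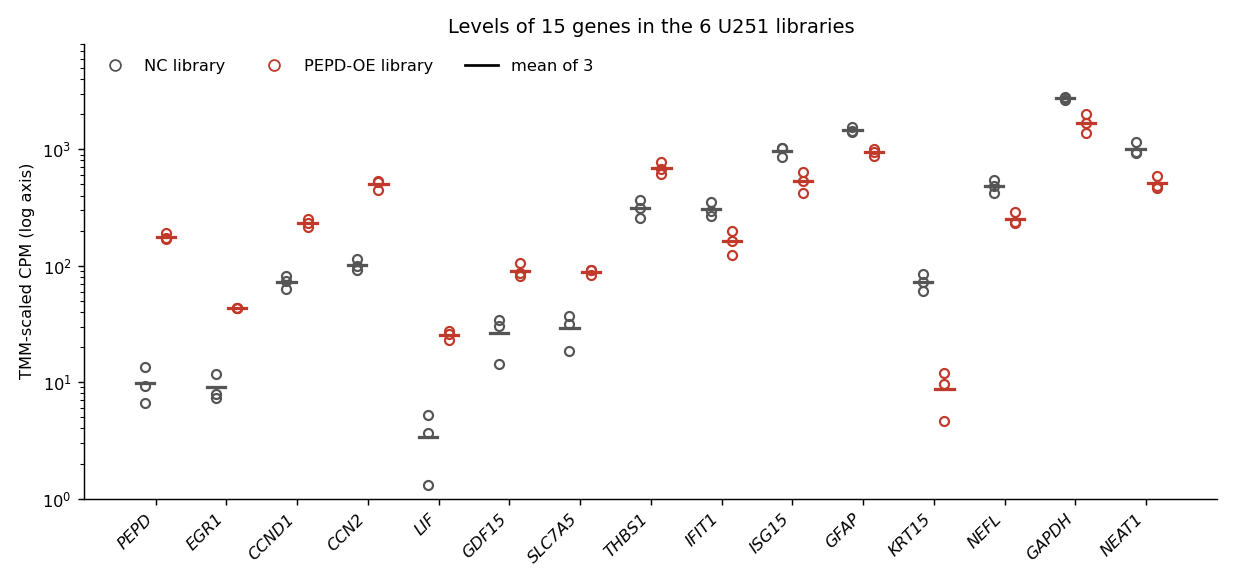
Open circles give the TMM-scaled CPM (log axis) of 15 genes in each of the 3 NC (grey) and 3 PEPD-OE (red) libraries of U251, and bars the mean of 3. For all 15 genes the PEPD-OE and NC libraries do not overlap, which was required of genes named for the largest change or smallest p. The first 8 are higher and the last 7 lower in PEPD-OE.

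Targets and feedback inhibitors of ERK signalling were the gene group with the highest median. Of 24 listed genes 11 were tested, 7 rose (63.6%, against 4.3% of all genes tested) and none fell. The median log2 fold change was 1.23 against 0.00095 over all genes tested. Counts in every list below are to be read beside the 4.3% higher and 4.85% lower of all genes. Without PEPD-OE replicate 1 the count was 8. EGR1, an immediate early transcription factor, was at 42.9, 43.6 and 43.5 CPM in PEPD-OE and 7.35, 7.87 and 11.8 CPM in NC (log2 fold change 2.25, SE 0.33, adjusted p = 3.97e-09). FOSL1, an AP-1 subunit that marks sustained ERK signalling, stood at 96.6, 95.7 and 123 CPM against 40.4, 31.5 and 32.8 CPM (log2 fold change 1.59, SE 0.20, adjusted p = 2.01e-11). Both genes were higher in every PEPD-OE library than in any NC library, and so was ETV5, an ETS factor induced by ERK, at 41.4, 27.9 and 35.9 CPM against 13.5, 10.5 and 11.8 CPM (log2 fold change 1.52, SE 0.32, adjusted p = 1.73e-04). EPHA2, an ephrin receptor that ERK induces, rose less, from 243 ± 18.6 to 377 ± 28.6 CPM (SD, n = 3 each, log2 fold change 0.64, SE 0.13, adjusted p = 7.33e-05). The feedback inhibitors DUSP4 and SPRY4 lost their calls without PEPD-OE replicate 3 (adjusted p = 0.0784 and 0.209) and without NC replicate 3 (adjusted p = 0.0657 and 0.0569). DUSP4 lost it also without NC replicate 2 (adjusted p = 0.0526), and SPRY4 without NC replicate 1 (adjusted p = 0.0971).

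CCND1, the cyclin D1 that carries growth factor signals into the cell cycle, stood at 251.4, 213 and 234 CPM in PEPD-OE and 80.9, 73.5 and 62.99 CPM in NC (log2 fold change 1.68, SE 0.16, adjusted p = 3.45e-19). Its opposite partner LTO1, with fewer counts, moved alike, at 118, 113 and 134 CPM against 50.2, 40.7 and 45.9 CPM (log2 fold change 1.41, SE 0.19, adjusted p = 2.16e-10). For both, the groups were far apart. The cyclin D partner CDK4 (opposite TSPAN31) fell, with 107, 122 and 127 CPM in PEPD-OE and 178, 161 and 217 CPM in NC (log2 fold change -0.63, SE 0.16, adjusted p = 0.00213), a call lost without NC replicate 3 (adjusted p = 0.0812). TSPAN31 held 5268 counts against 721 for CDK4, and whose reads stand under CDK4 was not tested. MYC rose at low level, from 10.3 ± 1.63 to 24.5 ± 8.50 CPM (SD, n = 3 each, log2 fold change 1.21, SE 0.37, adjusted p = 0.0193). That call was lost without PEPD-OE replicate 1 (adjusted p = 0.145), without NC replicate 1 (adjusted p = 0.110) and without NC replicate 3 (adjusted p = 0.0654).

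Upstream of ERK, 3 of 11 tested EGF family genes rose and none fell (median 0.03), with 4 without PEPD-OE replicate 1 and 1 without NC replicate 3. EGFR (opposite EGFR-AS1, 8 counts) stood at 52.1, 55.8 and 54.4 CPM in PEPD-OE against 29.4, 32.8 and 26.2 CPM in NC (log2 fold change 0.87, SE 0.24, adjusted p = 0.00804), with no overlap of the groups; the call was lost without NC replicate 3 (adjusted p = 0.0633). The EGFR ligand TGFA stood at 33.7, 47.3 and 36.97 CPM against 14.7, 24.9 and 19.7 CPM (log2 fold change 1.00, SE 0.28, adjusted p = 0.00976), a call lost without PEPD-OE replicate 2 (adjusted p = 0.117) and without NC replicate 1 (adjusted p = 0.109). ERRFI1 (opposite AL034417.4), an inhibitor of EGFR that is itself induced by the receptor, rose from 48.6 ± 5.79 to 79.9 ± 13.7 CPM (SD, n = 3 each, log2 fold change 0.73, SE 0.20, adjusted p = 0.00810). The ERRFI1 call was lost without PEPD-OE replicate 3 (adjusted p = 0.0985) and without NC replicate 3 (adjusted p = 0.0849). Among 13 tested immediate early and AP-1 genes EGR1, FOSL1 and JUN rose and none fell, with and without PEPD-OE replicate 1. JUN, the main AP-1 subunit, was at 231, 261 and 251.2 CPM against 187, 146 and 149.6 CPM (log2 fold change 0.62, SE 0.14, adjusted p = 7.22e-04). JUND, the constitutive member of that family, stood at 70.5, 59.4 and 68.5 CPM against 62.5, 66.9 and 76.1 CPM (log2 fold change -0.05, SE 0.20, adjusted p = 0.916) with overlapping groups.

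A pair of stretches upstream of called genes is shown because their motifs are the ones known for these pathways. A window of 250 bases before the start was searched on both strands in 27305 promoters of RefSeq (GRCh38.p14), which held 5620 of the 7507 tested genes. The TEAD letters GGAATG, the core to which YAP is brought, occurred in 11.9% of all promoters, in 9.29% of those of tested genes, in 5 of the 20 YAP and TEAD genes with a promoter in the table, and in 2 of the 6 of these that rose, CCN2 and YAP1. The CArG box, the site of serum response factor, occurred in 1.14% of all promoters, in 1.12% of those of tested genes and in 2 of 10 immediate early genes with a promoter, of which EGR1 rose. Capitals mark the matches.
CCN2, chr6:131951442-131951496, minus strand: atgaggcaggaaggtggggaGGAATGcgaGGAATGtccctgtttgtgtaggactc
EGR1, chr5:138465354-138465425, plus strand: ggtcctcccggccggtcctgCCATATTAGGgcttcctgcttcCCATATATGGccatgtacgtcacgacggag
CCN2 held 3 TEAD matches in the window, of which the stretch shows 2, and EGR1 held 2 CArG matches. The AP-1 letters TGANTCA were in 6.60% of all promoters, in 3.84% of those of tested genes and in 0 of 7 ERK genes. The ATF4 letters TGATGNAA were in 3.19%, in 1.21% and in 0 of 22 ATF4 genes. These are letters in a window, not bound sites.

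Genes of the YAP and TEAD pathway and its targets were called in 1 direction. Of 28 tested, 10 rose (35.7%, against 4.3% of all genes), 18 were not called and none fell (median 0.55). Without PEPD-OE replicate 1 the count was 11. CCN2, a matrix-associated protein and the best known YAP target, stood at 533, 525 and 444 CPM in PEPD-OE and 99.3, 91.9 and 114 CPM in NC (log2 fold change 2.29, SE 0.14, adjusted p = 1.59e-42); its opposite partner is not in the count table. Its relative CCN1 was at 162, 176 and 182 CPM against 57.6, 60.4 and 83.98 CPM (log2 fold change 1.37, SE 0.17, adjusted p = 5.38e-12). In both genes the lowest PEPD-OE library was well above the highest NC library. NT5E, the surface enzyme CD73 that makes adenosine, stood at 107, 104 and 92.4 CPM against 73.5, 45.9 and 30.2 CPM (log2 fold change 1.00, SE 0.19, adjusted p = 3.27e-05), with NC the more scattered group. GADD45A, a stress gene that p53 also induces, rose from 32.6 ± 11.6 to 87.9 ± 8.91 CPM (SD, n = 3 each, log2 fold change 1.43, SE 0.21, adjusted p = 1.66e-08).

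The list holds genes of the pathway itself as well as its targets. YAP1 (opposite AP000942.2, which held 1132 counts against 295) rose from 47.7 ± 16.1 to 77.7 ± 16.4 CPM (SD, n = 3 each, log2 fold change 0.70, SE 0.21, adjusted p = 0.0157) although the groups overlapped. That call was lost without PEPD-OE replicate 2 (adjusted p = 0.181), without NC replicate 1 (adjusted p = 0.226) and without NC replicate 3 (adjusted p = 0.0940). NF2, an activator of the Hippo kinases, also rose (log2 fold change 0.60, SE 0.18, adjusted p = 0.0174), with its call lost without PEPD-OE replicate 2 (adjusted p = 0.246), without NC replicate 1 (adjusted p = 0.0621) and without NC replicate 2 (adjusted p = 0.114). WWTR1 (opposite WWTR1-AS1), which encodes TAZ, the paralog of YAP, had a log2 fold change of 0.14 (adjusted p = 0.797), and SAV1 (opposite ATL1), a scaffold of the Hippo kinases, one of -0.18 (adjusted p = 0.740); neither passed the test.

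Secreted signals gave some of the largest changes. LIF, a cytokine of the interleukin 6 family that keeps glioma stem cells undifferentiated, stood at 27.6, 23.03 and 26.1 CPM in PEPD-OE and 3.68, 1.31 and 5.25 CPM in NC (log2 fold change 2.84, SE 0.46, adjusted p = 2.88e-07; opposite LIF-AS2, 18 counts). The NC libraries held 8 LIF counts in all. CXCL8, the chemokine interleukin 8, was at 19.9, 30.3 and 34.8 CPM against 12.3, 10.5 and 10.5 CPM (log2 fold change 1.37, SE 0.34, adjusted p = 0.00247). CSF1, the macrophage growth factor, went the other way, with 21.5, 29.1 and 29.4 CPM against 41.7, 60.4 and 49.9 CPM (log2 fold change -0.90, SE 0.25, adjusted p = 0.00875), a call lost without NC replicate 2 (adjusted p = 0.0905). These 3 were the called genes among 15 tested cytokine and NF-kB genes (median -0.06). The shares were 13.3% higher and 6.67% lower, against 4.3% and 4.85% over all genes. DESeq2 called 0 of the 15, but it gave LIF, CXCL8 and CSF1 no adjusted p and so did not judge them. IGFBP3, a carrier of insulin-like growth factors, was at 18.4, 19.4 and 18.5 CPM against 2.45, 6.56 and 0 CPM (log2 fold change 2.59, SE 0.54, adjusted p = 1.19e-04), with 7 counts in the NC libraries. STC2, a secreted glycoprotein that blocks the protease PAPPA, stood at 47.5, 38.8 and 41.3 CPM against 17.2, 10.5 and 15.7 CPM (log2 fold change 1.53, SE 0.30, adjusted p = 3.04e-05). IGFBP3 and STC2 were the 2 of 12 tested genes (16.7%) of the insulin-like growth factor axis that rose, and none fell. DESeq2 called 0 of these 12, but IGFBP3 and STC2 had no adjusted p there either. For all of these named signals the groups did not overlap.

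Of 28 tested genes of the ATF4 and amino acid response, 12 rose (42.9%, against 4.3% of all genes) and none fell (median 0.62). A positive log2 fold change was seen in 27 of the 28. The 12 were also the count without PEPD-OE replicate 1. Carriers of amino acids were prominent. SLC7A5 (opposite AC126696.2, 1 count), the light chain of the leucine carrier LAT1, stood at 91.96, 82.4 and 92.4 CPM in PEPD-OE and 36.8, 18.4 and 31.5 CPM in NC (log2 fold change 1.61, SE 0.22, adjusted p = 3.22e-10). Its heavy chain SLC3A2 was at 181, 221 and 192 CPM against 109, 114 and 104 CPM (log2 fold change 0.86, SE 0.16, adjusted p = 5.20e-06). Both chains were higher in each PEPD-OE library than in any NC library. SLC1A5, the glutamine carrier ASCT2, rose from 74.96 ± 12.4 to 135 ± 29.96 CPM (SD, n = 3 each, log2 fold change 0.87, SE 0.17, adjusted p = 6.04e-05), and its opposite partner AC008622.2 (6674 counts against 507) rose from a mean of 912 ± 165 to 1901 ± 64.6 CPM (SD, n = 3 each, log2 fold change 1.06, SE 0.11, adjusted p = 1.19e-18). SLC7A11 (opposite SLC7A11-AS1, 1205 counts), the cystine carrier, had 72.04, 87.3 and 81.6 CPM against 39.2, 60.4 and 53.8 CPM (log2 fold change 0.66, SE 0.20, adjusted p = 0.0183), and its call was lost without PEPD-OE replicate 2 (adjusted p = 0.107) and without NC replicate 1 (adjusted p = 0.217). SLC1A4, which carries alanine, serine and proline, rose from 12 to 41 counts over 3 libraries (log2 fold change 1.71, SE 0.48, adjusted p = 0.0104); the call was lost without PEPD-OE replicate 2 (adjusted p = 0.0547), without PEPD-OE replicate 3 (adjusted p = 0.0695) and without NC replicate 1 (adjusted p = 0.130).

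Stress effectors downstream of ATF4 rose with the carriers. GDF15, a secreted stress cytokine, stood at 85.8, 81.2 and 104 CPM in PEPD-OE and 30.6, 14.4 and 34.1 CPM in NC (log2 fold change 1.78, SE 0.22, adjusted p = 7.47e-12). PPP1R15A, the GADD34 subunit that reverses the phosphorylation of eIF2-alpha, was at 130.3, 137 and 169 CPM against 62.5, 48.6 and 64.3 CPM (log2 fold change 1.32, SE 0.18, adjusted p = 2.70e-10). TRIB3, a pseudokinase induced late in this response, was at 13.8, 24.2 and 30.4 CPM against 8.58, 5.25 and 5.25 CPM (log2 fold change 1.86, SE 0.41, adjusted p = 3.72e-04). In all 3 the groups were apart. ATF4 itself had a log2 fold change of 0.28 (adjusted p = 0.295) with overlapping groups, and DDIT3 (CHOP; opposite MARS1 and MBD6) one of 0.57 (adjusted p = 0.0564); neither passed the test. Of 20 aminoacyl-tRNA synthetases, which charge tRNAs with amino acids, 3 rose and none fell (median 0.39): EPRS1 (0.79), GARS1 (opposite GARS1-DT, 0.71) and TARS1 (0.62). The EPRS1 call was lost without PEPD-OE replicate 1 (adjusted p = 0.0872), that of GARS1 without PEPD-OE replicate 3 (adjusted p = 0.0630), without NC replicate 1 (adjusted p = 0.0722) and without NC replicate 3 (adjusted p = 0.0959), and that of TARS1 without PEPD-OE replicate 2 (adjusted p = 0.0756) and without NC replicate 3 (adjusted p = 0.198). Without PEPD-OE replicate 1 the count was 2. Without NC replicate 3 it was 1.

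Genes of ribosome production rose in part. Of 26 tested nucleolar and ribosome biogenesis genes, 9 rose (34.6%, against 4.3% of all genes) and none fell (median 0.41). Without PEPD-OE replicate 1 the count was 10. It was 5, 4 and 3 without PEPD-OE replicate 2, NC replicate 1 and NC replicate 3. TCOF1, the nucleolar protein treacle, stood at 178, 207 and 179 CPM in PEPD-OE and 110.3, 113 and 121 CPM in NC (log2 fold change 0.72, SE 0.16, adjusted p = 2.93e-04). FBL, the methylase fibrillarin, was at 139, 151 and 153 CPM against 99.3, 97.1 and 93.2 CPM (log2 fold change 0.62, SE 0.16, adjusted p = 0.00532). These were the 2 of the 9 called in every fit with 1 library left out, and in both the groups were apart. NCL, nucleolin, rose from 553 ± 17.2 to 746 ± 30.2 CPM (SD, n = 3 each, log2 fold change 0.43, SE 0.11, adjusted p = 0.00479), a call lost without NC replicate 3 (adjusted p = 0.0559). The 75 ribosomal proteins of the cytosol did not share this: none rose and 2 fell (median -0.03; 1 to 4 with a library left out), RPL10 (opposite DNASE1L1 and AC245140.2, -0.50) and RPL28 (-0.42), whose call was lost without PEPD-OE replicate 2 (adjusted p = 0.0677), without NC replicate 1 (adjusted p = 0.0723) and without NC replicate 3 (adjusted p = 0.0992). Reads of ribosomal protein genes can be split with their many processed copies. In polyamine synthesis, which feeds growth, SRM (spermidine synthase) rose from 18.4 ± 5.25 to 39.7 ± 11.02 CPM (SD, n = 3 each, log2 fold change 1.12, SE 0.29, adjusted p = 0.00309). The SRM call was lost without PEPD-OE replicate 3 (adjusted p = 0.0909) and without NC replicate 3 (adjusted p = 0.0567). MTAP (opposite AL359922.2), which salvages methionine from that pathway, was at 88.9, 129.7 and 113 CPM against 62.5, 65.6 and 62.99 CPM (log2 fold change 0.81, SE 0.18, adjusted p = 6.04e-04). These were 2 of 11 polyamine genes tested.

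In the cell cycle, 8 of 30 tested DNA replication and G1/S genes rose (26.7%, against 4.3% of all genes) and none fell (median 0.45). A positive value was seen in 28 of the 30. These calls were fragile. The count was 6 without PEPD-OE replicate 1, 0 without PEPD-OE replicate 2, 3 without PEPD-OE replicate 3, and 3, 2 and 1 without NC replicates 1, 2 and 3. In the fits without PEPD-OE replicate 3 and without NC replicate 2 a single member fell. None of the 8 was called in every such fit, and DESeq2 called 1. There MCM7, RRM2 and UHRF1 failed (DESeq2 adjusted p = 0.06365, 0.05668 and 0.08707), and the others not called had no adjusted p. CLSPN (opposite AL354864.1), claspin of the replication checkpoint, was at 67.4, 99.4 and 65.2 CPM in PEPD-OE and 41.7, 32.8 and 44.6 CPM in NC (log2 fold change 0.96, SE 0.21, adjusted p = 3.63e-04), a call lost without PEPD-OE replicate 2 (adjusted p = 0.0571). The other called members were MCM6, MCM7 (opposite AP4M1), PCNA, RRM2, CDC45, POLD1 and UHRF1, with log2 fold changes of 0.46 to 1.32. Of 43 mitosis and G2/M genes edgeR and DESeq2 each called 0 (median 0.08), with 4 above and 0 below at an unadjusted p under 0.05 in edgeR. MKI67, the proliferation antigen Ki-67, stood at 343, 358 and 318 CPM against 272, 332 and 281 CPM with overlapping groups (log2 fold change 0.20, SE 0.13, adjusted p = 0.382).

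**Figure D3:**
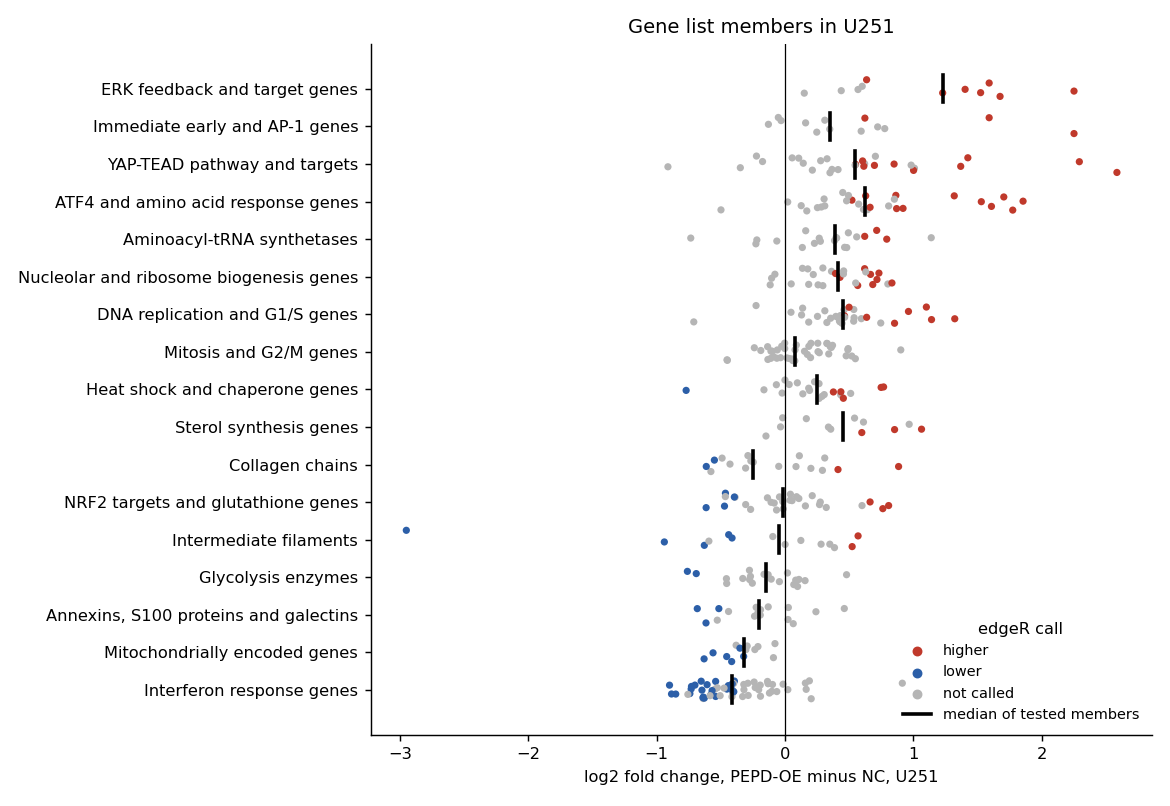
Points are the log2 fold changes (PEPD-OE against NC in U251) of the tested members of 17 gene lists, red for higher, blue for lower and grey for not called by edgeR, and black bars are the medians. ERK feedback and target genes have the highest median at 1.23, and interferon response genes the lowest of those shown, at -0.41.

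Interferon response genes fell together. Of 58 tested, 23 fell (39.7%, against 4.85% of all genes) and none rose. The median was -0.41 against 0.00095 over all genes tested, and 52 of the 58 had a negative value. The count was 18 without PEPD-OE replicate 1. It was 11, 11 and 12 without PEPD-OE replicate 2, NC replicate 1 and NC replicate 2. The 23 changes were modest, from -0.39 in LGALS3BP to -0.90 in IFIT1. The LGALS3BP call was lost without PEPD-OE replicate 2 (adjusted p = 0.0539) and without NC replicate 1 (adjusted p = 0.151). ISG15, a ubiquitin-like protein joined to other proteins in antiviral defence, stood at 423, 537 and 643 CPM in PEPD-OE and 1016, 863 and 1029 CPM in NC (log2 fold change -0.85, SE 0.11, adjusted p = 7.20e-11). IFIT1, which binds foreign RNA ends, was at 123, 199.98 and 162 CPM against 350.5, 294 and 268 CPM (log2 fold change -0.90, SE 0.14, adjusted p = 5.14e-08). IFITM1, which blocks viral entry, was at 309.6, 375 and 423 CPM against 635, 537 and 579 CPM (log2 fold change -0.65, SE 0.12, adjusted p = 6.98e-06). In each of the 3 the highest PEPD-OE library lay below the lowest NC library.

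Other effectors held the same order. IFI27 was at 178, 233 and 328 CPM against 462, 382 and 407 CPM (log2 fold change -0.74, SE 0.13, adjusted p = 4.26e-06), and BST2, tetherin that holds back virus release, at 369, 496 and 455 CPM against 681, 649.6 and 596 CPM (log2 fold change -0.54, SE 0.12, adjusted p = 2.50e-04). HELZ2, an interferon-induced helicase, was at 133, 185 and 225 CPM against 284, 308 and 304 CPM (log2 fold change -0.70, SE 0.14, adjusted p = 3.80e-05). IFIT3, the partner of IFIT1 and the last of the 7 members called in every fit with 1 library left out, stood at 104, 119 and 116 CPM against 194, 163 and 177 CPM (log2 fold change -0.65, SE 0.16, adjusted p = 0.00169). The groups did not overlap in any of these 4. In all 7 genes the lowest of the 6 libraries was PEPD-OE replicate 1, and all 7 were called without it. STAT2, a transcription factor of the pathway, fell (log2 fold change -0.73, SE 0.20, adjusted p = 0.00746), with its call lost without PEPD-OE replicate 2 (adjusted p = 0.0889) and without NC replicate 1 (adjusted p = 0.0756). OAS3, a sensor of double-stranded RNA, did not pass the test, with 181, 182 and 188 CPM against 239, 206 and 206 CPM (log2 fold change -0.24, SE 0.14, adjusted p = 0.336). Among class I antigen presentation genes 2 of 17 fell (11.8%, against 4.85% of all genes) and none rose (median -0.19). These were PSME1 (opposite EMC9, -0.70) and CALR (opposite AC092069.1, -0.30). The PSME1 call was lost without PEPD-OE replicate 1 (adjusted p = 0.0527), without PEPD-OE replicate 2 (adjusted p = 0.0590) and without NC replicate 2 (adjusted p = 0.0812). The CALR call was lost without PEPD-OE replicate 1 (adjusted p = 0.0613), without PEPD-OE replicate 2 (adjusted p = 0.107), without NC replicate 1 (adjusted p = 0.301), without NC replicate 2 (adjusted p = 0.0780) and without NC replicate 3 (adjusted p = 0.0929). The list had 0 calls without PEPD-OE replicate 1, PEPD-OE replicate 2 or NC replicate 2, and 3 without PEPD-OE replicate 3.

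The ISRE letters GAAANNGAAA, searched on both strands, were found in 3.07% of all promoters, in 2.58% of those of tested genes and in 24 (51.1%) of the 47 interferon genes with a promoter in the table. Of the 19 that fell and had a promoter, 11 held it. The stretches below come from 4 of the members called in every fit, with 20 bases on each side of the matches. Capitals mark the matches on either strand, and in ISG15 and BST2 they overlap.
ISG15, chr1:1013364-1013419, plus strand: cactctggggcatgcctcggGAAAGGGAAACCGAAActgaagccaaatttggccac
BST2, chr19:17405725-17405780, minus strand: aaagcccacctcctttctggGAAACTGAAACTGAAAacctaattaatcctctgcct
IFIT1, chr10:89392487-89392549, plus strand: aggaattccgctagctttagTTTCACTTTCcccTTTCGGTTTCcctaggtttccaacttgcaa
IFI27, chr14:94110608-94110670, plus strand: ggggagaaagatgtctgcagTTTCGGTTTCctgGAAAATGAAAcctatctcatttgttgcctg
Each of the 4 windows held 2 matches, all between 66 and 150 bases before the start with their flanks. STAT2 and OAS1 fell without a match among these letters in their windows.

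Of the intermediate filaments, GFAP, NEFL, VIM and KRT15 were lower, and lamins split. Of 14 tested intermediate filament genes 5 fell (35.7%), 2 rose (14.3%) and 7 were not called (median -0.05). Log2 fold changes were positive in 7 and negative in 7. Without PEPD-OE replicate 1, 4 fell and 2 rose. GFAP, the filament of astrocytes, stood at 879.8, 947 and 1012 CPM in PEPD-OE and 1401, 1560.3 and 1436 CPM in NC (log2 fold change -0.63, SE 0.10, adjusted p = 4.82e-07; opposite CCDC103, 600 counts). NEFL, the light neurofilament, was at 233, 287 and 236 CPM against 549, 424 and 480.3 CPM (log2 fold change -0.94, SE 0.13, adjusted p = 1.42e-10). Its opposite partner AC107373.2 held more counts and fell by a like amount (log2 fold change -0.90, SE 0.11, adjusted p = 4.47e-13). KRT15, an epithelial keratin, had the largest fall of the named genes, with 4.60, 9.70 and 11.96 CPM against 60.05, 72.2 and 83.98 CPM (log2 fold change -2.95, SE 0.29, adjusted p = 1.19e-18). The groups did not overlap in these 3. VIM, vimentin, stood at 1346, 1624 and 1830.2 CPM against 2121, 2111 and 2169 CPM (log2 fold change -0.41, SE 0.10, adjusted p = 0.00190), but its opposite partner VIM-AS1 held 60982 counts against 8894 (and AL133415.1, also opposite, 8951) and also fell (log2 fold change -0.34, SE 0.09, adjusted p = 0.00448), a call lost without PEPD-OE replicate 2 (adjusted p = 0.0538). The lamins of the nuclear envelope split: LMNA fell (-0.44) while LMNB1 (0.57) and LMNB2 (0.52) rose. The LMNA call was lost without PEPD-OE replicate 1 (adjusted p = 0.0852), without PEPD-OE replicate 2 (adjusted p = 0.0593) and without NC replicate 1 (adjusted p = 0.0577). The LMNB1 call was lost without PEPD-OE replicate 2 (adjusted p = 0.226), without PEPD-OE replicate 3 (adjusted p = 0.0697), without NC replicate 1 (adjusted p = 0.0892), without NC replicate 2 (adjusted p = 0.05003) and without NC replicate 3 (adjusted p = 0.264). The LMNB2 call was lost without PEPD-OE replicate 2 (adjusted p = 0.0539), without PEPD-OE replicate 3 (adjusted p = 0.0863), without NC replicate 1 (adjusted p = 0.0701) and without NC replicate 3 (adjusted p = 0.248).

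The glioma markers include VIM and GFAP. The summed level of VIM, NES, CD44, SOX2, GFAP, PTPRZ1 and EGFR was 3132 to 3820 CPM in PEPD-OE and 4355 to 4603 CPM in NC; EGFR rose and VIM, SOX2 and GFAP fell. SOX2, a factor of neural stem cells, was at 277, 322 and 243 CPM against 434, 356 and 377 CPM (log2 fold change -0.47, SE 0.13, adjusted p = 0.00632), a call lost without PEPD-OE replicate 3 (adjusted p = 0.0740) and without NC replicate 1 (adjusted p = 0.139). NES and CD44 did not pass the test (-0.10, adjusted p = 0.735, and -0.06, adjusted p = 0.840; CD44 lies opposite CD44-AS1). S100A6 (opposite BX470102.1, 41 counts), a calcium-binding protein, stood at 319, 486 and 597 CPM against 794, 696 and 782 CPM (log2 fold change -0.68, SE 0.12, adjusted p = 9.03e-06). HSPB1, the small heat shock protein HSP27, was at 189, 196 and 264 CPM against 382, 364 and 370.04 CPM (log2 fold change -0.77, SE 0.13, adjusted p = 9.23e-07). In both, PEPD-OE replicate 1 was the lowest and the groups were apart. Of 33 tested actin and contractility genes 2 rose and 3 fell (median 0.01), shares of 6.06% and 9.09% against 4.3% and 4.85% over all genes. Without NC replicate 1 the numbers were 1 and 1, and without NC replicate 3 they were 2 and 1. TMSB4X, which binds actin monomers, fell from 796 ± 39.7 to 565 ± 95.1 CPM (SD, n = 3 each, log2 fold change -0.49, SE 0.11, adjusted p = 7.58e-04), while CALD1, caldesmon of contractile fibres, rose from a mean of 96.5 ± 15.3 to 159 ± 34.6 CPM (SD, n = 3 each, log2 fold change 0.71, SE 0.17, adjusted p = 8.84e-04). TUBA1A (opposite TUBA1C) was at 84.3, 102 and 125 CPM against 211, 239 and 185 CPM (log2 fold change -1.01, SE 0.16, adjusted p = 4.34e-08); tubulin paralogs are near identical, so reads may be split between them.

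Chaperones changed in a few members. Of 22 tested heat shock and chaperone genes 5 rose and 1 fell (median 0.25), and without PEPD-OE replicate 1 the numbers were 6 and 1. The number that rose was 1 without PEPD-OE replicate 2, NC replicate 1 or NC replicate 3. HSP90AA1, the inducible HSP90 (opposite WDR20, 74 counts), was at 955, 908 and 839.5 CPM against 502, 584 and 499 CPM (log2 fold change 0.77, SE 0.11, adjusted p = 4.25e-09) and was called in all of these fits. The others that rose were HSPA8 (0.45), HSP90AB1 (0.38), FKBP4 (0.75) and HSPD1 (opposite HSPE1, 0.44), and each lost its call without PEPD-OE replicate 2 (adjusted p = 0.0536, 0.0892, 0.184 and 0.259), NC replicate 1 (0.0876, 0.0844, 0.0807 and 0.0782) and NC replicate 3 (0.0826, 0.0743, 0.179 and 0.245). In the endoplasmic reticulum 2 of 21 tested folding and unfolded protein response genes rose and 2 fell (median 0.04). Each share was 9.52%, against 4.3% and 4.85% over all genes. HSPA5, the main chaperone BiP there, rose from 439 ± 15.5 to 571 ± 40.4 CPM (SD, n = 3 each, log2 fold change 0.38, SE 0.12, adjusted p = 0.0228). The HSPA5 call was lost without PEPD-OE replicate 2 (adjusted p = 0.162), without NC replicate 1 (adjusted p = 0.0694), without NC replicate 2 (adjusted p = 0.0940) and without NC replicate 3 (adjusted p = 0.128). NRF2 targets did not move one way: of 29 tested 3 rose and 4 fell (median -0.01). The shares were 10.3% and 13.8%, against 4.3% and 4.85% over all genes. Without PEPD-OE replicate 1 the numbers were 4 and 2. They were 1 and 2 without PEPD-OE replicate 2 or NC replicate 1. TXNRD1, thioredoxin reductase, stood at 258, 282 and 274 CPM against 169, 149.6 and 161 CPM (log2 fold change 0.76, SE 0.14, adjusted p = 9.18e-06). FTL, the ferritin light chain, was at 371, 465 and 622 CPM against 759.8, 707 and 782 CPM (log2 fold change -0.62, SE 0.12, adjusted p = 1.66e-05). The groups were apart in both genes.

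The matrix, whose breakdown yields the substrates of prolidase, changed in single genes. Of 17 tested collagen chains 2 rose and 2 fell (median -0.25), shares of 11.8% each against 4.3% and 4.85% over all genes. COL4A1, a basement membrane chain, stood at 135, 127 and 141 CPM in PEPD-OE and 52.7, 87.9 and 78.7 CPM in NC (log2 fold change 0.89, SE 0.18, adjusted p = 4.59e-05), and COL1A2, a fibrillar chain, at 311, 399.96 and 345 CPM against 499.99, 543 and 508 CPM (log2 fold change -0.55, SE 0.12, adjusted p = 3.45e-04). These went in opposite directions, each without overlap of the groups. The other called chains were COL4A2, which shares a promoter region with COL4A1 (0.41), and COL9A3 (opposite TCFL5, -0.61). The COL4A2 call was lost without PEPD-OE replicate 2 (adjusted p = 0.184), without NC replicate 1 (adjusted p = 0.110) and without NC replicate 3 (adjusted p = 0.240), and that of COL9A3 without PEPD-OE replicate 1 (adjusted p = 0.128), without PEPD-OE replicate 2 (adjusted p = 0.132), without NC replicate 1 (adjusted p = 0.568) and without NC replicate 2 (adjusted p = 0.0813). Of 21 enzymes that hydroxylate, crosslink or process collagen, edgeR and DESeq2 each called 0 (median -0.20), with 1 above and 2 below at an unadjusted p under 0.05 in edgeR.

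THBS1, thrombospondin 1, an adhesive glycoprotein that activates TGF-beta, stood at 673, 771 and 616 CPM in PEPD-OE and 259, 364 and 314 CPM in NC (log2 fold change 1.14, SE 0.12, adjusted p = 1.71e-16), with THBS1-AS1 (121 counts) and FSIP1 opposite, the latter at 33.7, 38.8 and 41.3 CPM against 14.7, 13.1 and 10.5 CPM (log2 fold change 1.57, SE 0.31, adjusted p = 4.57e-05). TGFBI, a matrix protein induced by TGF-beta, was at 182, 221 and 258 CPM against 355, 358 and 371 CPM (log2 fold change -0.70, SE 0.13, adjusted p = 1.09e-05). MMP24 (opposite MMP24OS and AL121753.2), a membrane-bound metalloproteinase, was at 185, 181 and 241 CPM against 385, 358 and 433 CPM (log2 fold change -0.94, SE 0.13, adjusted p = 7.33e-10). All 3 had groups that were apart. Matrix glycoproteins as a list gave 2 higher and 3 lower of 28 tested (median -0.06). The shares were 7.14% and 10.7%, against 4.3% and 4.85% over all genes. This list holds both THBS1 and TGFBI. Within the 16 tested genes of proline metabolism and prolyl peptidases, 2 rose, PEPD and SLC1A4, and 1 fell. PYCR1 (opposite PYCR1-AS1), which makes proline, stood at 12.3, 16.97 and 10.9 CPM against 18.4, 19.7 and 11.8 CPM (log2 fold change -0.32, SE 0.37, adjusted p = 0.709), and ALDH18A1, the enzyme before it, at 24.5, 24.2 and 30.4 CPM against 26.96, 22.3 and 19.7 CPM (log2 fold change 0.21, SE 0.29, adjusted p = 0.762). Both had overlapping groups and did not pass the test.

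Mitochondrially encoded genes depended on PEPD-OE replicate 1. Of 13 tested 6 fell and none rose (median -0.32). All 13 fell without PEPD-OE replicate 1 (median -0.53), and 2 without PEPD-OE replicate 2. MT-ND6, a complex I subunit and the one protein gene on its strand, stood at 8367, 7010.2 and 6675 CPM in PEPD-OE and 11551, 10359 and 12231 CPM in NC (log2 fold change -0.63, SE 0.09, adjusted p = 3.50e-09). MT-ATP8, a subunit of the ATP synthase whose gene overlaps MT-ATP6 on the same strand, was at 897, 1016 and 963 CPM against 1685, 1203 and 1357 CPM (log2 fold change -0.56, SE 0.11, adjusted p = 1.49e-05). In MT-ND5 that library was the highest of the 6, with 20407, 10472 and 10214 CPM against 16910.3, 12791 and 13664 CPM (log2 fold change -0.08, SE 0.33, adjusted p = 0.938). The part of the mitochondrial share of each library in these results was not tested. Of 32 respiratory chain genes of the nucleus 1 fell and none rose (median -0.25). In glycolysis 2 of 20 fell (10%, against 4.85% of all genes) and none rose (median -0.15), with 4 lower without PEPD-OE replicate 3. GAPDH was at 1389, 1692 and 1994 CPM against 2793, 2663 and 2758 CPM (log2 fold change -0.69, SE 0.10, adjusted p = 3.93e-09), and its opposite partner AC006064.4, with 21985 counts against 10546, fell by a like amount (log2 fold change -0.69, SE 0.10, adjusted p = 3.92e-10). SLC16A3 (opposite CSNK1D), the lactate exporter MCT4, was at 65.9, 61.8 and 68.5 CPM against 115, 105 and 113 CPM (log2 fold change -0.76, SE 0.18, adjusted p = 0.00137).

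Outside the lists, several of the strongest changes stood under genes with a partner. CCDC152 (opposite SELENOP, the selenium carrier) was at 87.4, 84.8 and 66.3 CPM in PEPD-OE and 259, 259.8 and 276 CPM in NC (log2 fold change -1.75, SE 0.16, adjusted p = 8.52e-22), and SELENOP itself held 7 counts. UTS2, the gene of the vasoactive peptide urotensin 2 (opposite PER3, a clock gene with 35 counts), was at 113, 89.7 and 65.2 CPM against 306, 273 and 274 CPM (log2 fold change -1.70, SE 0.16, adjusted p = 1.46e-21). TBPL1 (opposite SLC2A12, a glucose carrier) was at 221, 190.3 and 192 CPM against 549, 567 and 577 CPM (log2 fold change -1.49, SE 0.13, adjusted p = 2.91e-24). In all 3 the NC libraries lay over 2-fold above the PEPD-OE libraries. Whether these reads came from the named gene or from its partner was not tested, and few counts under the partner's name do not settle it. ZNF142 (opposite BCS1L) and PHYHIPL (opposite FAM13C) fell as well, by log2 values of -1.26 and -1.22. Without a partner, CCDC85B, a transcriptional repressor, was at 299, 279 and 382 CPM against 116, 95.8 and 77.4 CPM (log2 fold change 1.73, SE 0.15, adjusted p = 1.74e-23). NEAT1, the RNA that builds nuclear paraspeckles, was at 589, 479 and 462 CPM against 1156, 930.4 and 949 CPM (log2 fold change -0.99, SE 0.11, adjusted p = 1.24e-14). Its neighbour MALAT1 (opposite AP000769.2, 2 counts), an RNA of nuclear speckles, fell from 543 ± 48.9 to 383 ± 28.03 CPM (SD, n = 3 each, log2 fold change -0.51, SE 0.12, adjusted p = 0.00109).

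At low level, DIO2, the deiodinase that activates thyroid hormone, rose from 14 to 54 counts over 3 libraries (log2 fold change 1.89, SE 0.43, adjusted p = 5.13e-04; opposite DIO2-AS1, 0 counts). N4BP2 (opposite AC098591.1, 0 counts) fell from 61 to 15 counts (log2 fold change -2.03, SE 0.40, adjusted p = 3.95e-05), and CFI, complement factor I, from 71 to 26 (log2 fold change -1.48, SE 0.34, adjusted p = 8.41e-04). These 3 calls held in each fit with 1 library left out.

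Overlap with the other strand went along with more calls. Among tested genes, 412 of 3975 with an opposite exon (10.4%) and 256 of 3394 without one (7.54%) were called. Called genes had a median level of 86.7 CPM, against 34.1 CPM over all genes tested. Levels of genes with and without an opposite exon were not compared, so the part of level in this difference was not tested. A refit on genes without such exons alone called 232 of 3397 (6.83%), 116 in each direction, 230 of them among the 687. To see both names of a locus, noncoding genes with at least 50% of their exon bases inside exons of 1 coding gene were paired with that gene, a definition chosen after the values were seen. Of 335 such pairs, the noncoding name held more counts than the coding name in 266. Of the noncoding names 60 were called, 25 higher and 35 lower. In 44 of these pairs the coding gene was tested too, and it had the same sign in 35. Both names were called in 9 pairs, with the same direction in all 9. Over the 247 pairs with both tested, the log2 fold changes had a Pearson correlation of 0.41 and a Spearman correlation of 0.43, a description across loci that share libraries.

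Several pathway genes that were filtered out or not called under their own name had a called noncoding gene inside them. AC024909.2, inside DUSP6, the phosphatase that switches off ERK, stood at 418, 368 and 314 CPM in PEPD-OE and 107, 102 and 70.9 CPM in NC (log2 fold change 1.97, SE 0.15, adjusted p = 4.83e-30), while DUSP6 held 39 counts and was not tested. AC011446.2, inside the immediate early gene IER2, was at 586, 648 and 728 CPM against 434, 428 and 463 CPM (log2 fold change 0.57, SE 0.12, adjusted p = 8.33e-05), and IER2 had a log2 fold change of 0.31 (adjusted p = 0.278). ABALON, inside BCL2L1, which blocks apoptosis, rose from 1029 ± 149 to 1965 ± 185 CPM (SD, n = 3 each, log2 fold change 0.93, SE 0.10, adjusted p = 6.70e-15). BCL2L1 itself rose with it (log2 fold change 0.76, SE 0.20, adjusted p = 0.00414), a call lost without NC replicate 3 (adjusted p = 0.0777). AC008738.3, inside CEBPA, a differentiation factor, was at 62.8, 72.7 and 72.9 CPM against 199.8, 181 and 197 CPM (log2 fold change -1.46, SE 0.17, adjusted p = 3.34e-14), with 29 counts for CEBPA. For these 4 noncoding names the groups did not overlap. PAPPA-AS1 (opposite PAPPA, the protease that STC2 blocks, 53 counts) rose from a mean of 283 ± 8.35 to 548 ± 51.5 CPM (SD, n = 3 each, log2 fold change 0.95, SE 0.12, adjusted p = 2.82e-11). Which strand these reads came from was not tested.

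**Figure D4:**
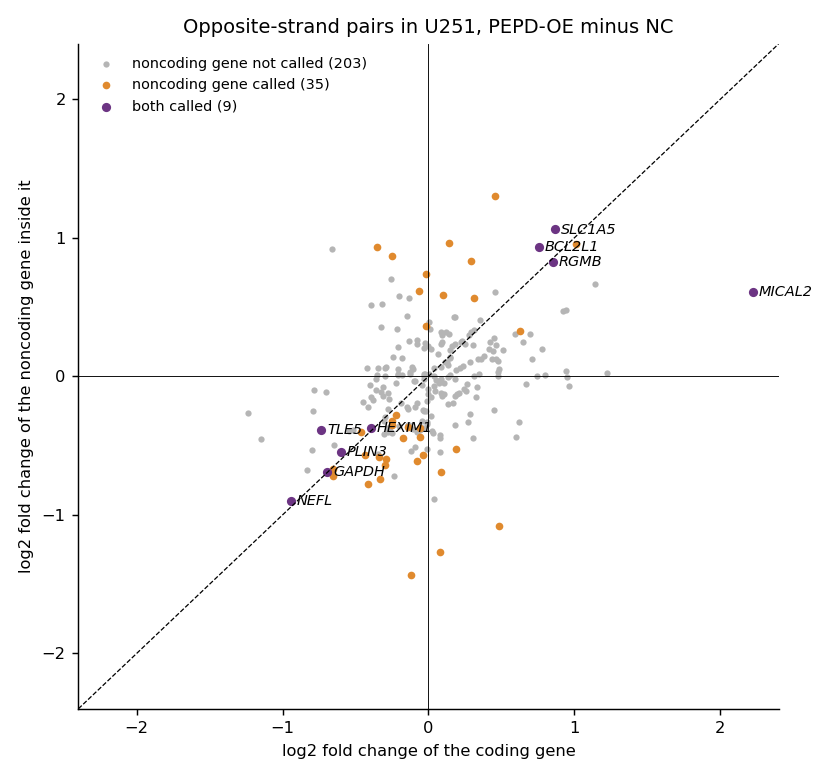
Each point is 1 of 247 opposite-strand pairs in U251, with the log2 fold change (PEPD-OE against NC) of the coding gene on the horizontal axis and of the noncoding gene inside it on the vertical axis; the dashed line marks equal values. The 9 pairs with both names called (purple) lie at the lower left and the upper right.

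The response of U251 was set against that of T98G in a fit of all 12 libraries with the difference of the 2 changes as the tested term. Of 8773 genes tested there, 2428 (27.7%) differed between the lines. In T98G 17.7% of genes were higher and 14.7% lower in PEPD-OE. Of the 686 genes called in U251 that were in this fit, the difference was called for 486. Of 322 higher in U251, 29 were higher in T98G, 143 lower and 150 not called. Of 364 lower in U251, 49 were lower in T98G, 168 higher and 147 not called. PEPD changed by 4.16 in U251 and 4.04 in T98G, a difference of 0.12 (SE 0.47, adjusted p = 0.886).

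The lines differed in several gene groups that were higher in U251, of which 4 come first. ATF4 genes had a median of 0.63 in U251 and -0.96 in T98G, with 23 of 27 members differing with the U251 value the higher and 1 the other way. In T98G 2 of these genes were called higher and 18 lower. Ribosome biogenesis genes had medians of 0.42 and -0.78, and 16 of 26 members differed, all higher in U251. ERK genes had medians of 1.32 and -0.47, with 8 of 10 members higher in U251. YAP genes had medians of 0.55 and -0.33, with 10 of 28 members differing toward U251 and 1 toward T98G. Toward U251 there also differed 14 of 20 aminoacyl-tRNA synthetases and 12 of 30 DNA replication genes, with 0 toward T98G. Of 22 heat shock and chaperone genes 14 differed toward U251 and 1 toward T98G. SLC7A5 changed by 1.61 in U251 and -1.83 in T98G, a difference of 3.44 (SE 0.26, adjusted p = 1.84e-25). FOSL1 differed by 3.05 (SE 0.26, adjusted p = 5.57e-21). Interferon genes were lower in both lines but by unequal amounts, with medians of -0.41 in U251 and -2.31 in T98G, and for 45 of 58 members the difference was called with the U251 value the higher, for 1 with the T98G value the higher. IFIT3 changed by -0.64 in U251 and -5.20 in T98G (difference 4.56, SE 0.43, adjusted p = 5.67e-18). Mitochondrially encoded genes went apart, with medians of -0.32 and 0.61, and 9 of 13 members were called lower in U251 by the difference. These medians come from the fit of 12 libraries and can differ slightly from those of the fit within U251.

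**Figure D5:**
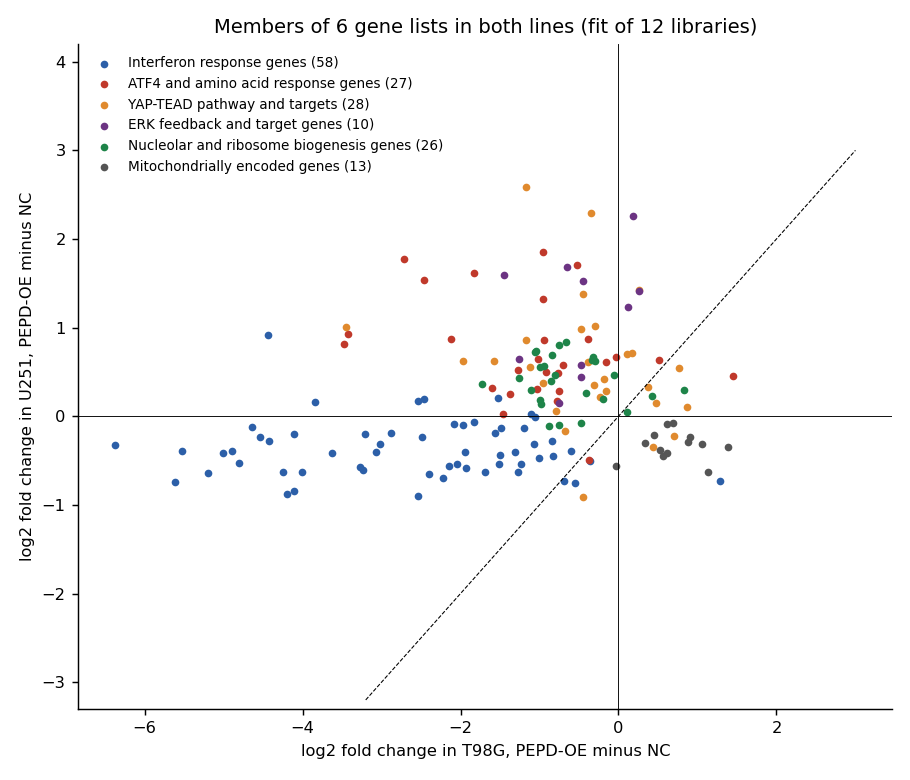
Each point is a member of 1 of 6 gene lists, with its log2 fold change (PEPD-OE against NC) in T98G on the horizontal axis and in U251 on the vertical axis, from the fit of 12 libraries; the dashed line marks equal change. Interferon genes (blue) spread far to the left, with medians of -2.31 in T98G and -0.41 in U251, and ATF4 genes (red) lie mostly at the upper left.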

How the data were processed

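RNA of 6 U251 and 6 T98G libraries was sequenced from poly(A) RNA libraries that keep strand by dUTP marking, per the labels. The deposited table holds raw read counts of 63241 genes, unnormalized. FastQC, fastp, HISAT2, featureCounts (Subread) and the build GRCh38 are named in the submitters' processing notes; their versions, the annotation release and the strand setting were not given in the sources used here. GENCODE release 29 supplied names, positions and opposite exons, and 58228 (92.1%) of the identifiers matched it. Identifiers outside that release were not searched as opposite partners. The U251 counts were filtered with filterByExpr (minimum count 10), scaled by TMM and tested with the quasi-likelihood F test of edgeR 4.0.16 (robust, R 4.3.3), with Benjamini-Hochberg adjustment over all 7507 genes at 0.05. The standard error was the absolute log2 fold change divided by the square root of F. The variance of most genes came largely from pooling over genes. The prior degrees of freedom had a median of 409, against 4 from a gene's own libraries. A gene's own scatter therefore weighed little in its p-value, and a call could stand with overlapping groups. DESeq2 1.42.0, other scalings and filters, a null of changes up to 0.5 on the log2 scale, a fit of 12 libraries, a replicate block and the leaving out of each library were alternatives. The scripts were tested on simulated data.

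Groups came from sample titles. Members and gene lists were chosen with earlier results of these data known. Named genes were PEPD, the called genes with the largest changes (12 per direction) or smallest p (8 per direction), up to 6 called and 2 not called members per list, opposite partners, and up to 6 genes per sign that differed between the lines. A further 22 were chosen after their values were seen: NF2, YAP1, LGALS3BP, BST2, IFIT3, IFITM1, HELZ2, OAS1, AC024909.2, AC008738.3, AC008622.2, PAPPA-AS1, ALDH18A1, PYCR1, MALAT1, MCM7, UHRF1, EPHA2, NCL, DDIT3, SLC1A5 and SLC3A2. Protein sequences were not used here, and the results of some genes are not reported here.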

Additional observations from a re-analysis of the deposited data

Results flagged for a closer look

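The difference between the lines was followed for the genes called in U251 with the smallest p for that difference, up to 6 per sign. The values are log2 fold changes of PEPD-OE against NC, and the difference is U251 minus T98G, tested in edgeR over 8773 genes.

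A larger value in U251 was found for 6 genes. MX1 (opposite MX1-AS1) changed by -0.41 in U251 and -5.00 in T98G, a difference of 4.59 (SE 0.28, adjusted p = 1.85e-33). IFI44L, also induced by interferon, changed by -0.39 and -4.89, a difference of 4.49 (adjusted p = 8.20e-32). The calls of both in U251 were lost in some fits with 1 library left out: MX1 without PEPD-OE replicate 1 (adjusted p = 0.0588), without PEPD-OE replicate 3 (adjusted p = 0.0672), without NC replicate 1 (adjusted p = 0.106), without NC replicate 2 (adjusted p = 0.0905) and without NC replicate 3 (adjusted p = 0.0812), and IFI44L without PEPD-OE replicate 3 (adjusted p = 0.149), without NC replicate 1 (adjusted p = 0.0723), without NC replicate 2 (adjusted p = 0.109) and without NC replicate 3 (adjusted p = 0.0700). CCDC85B changed by 1.73 and -1.68 (difference 3.41, adjusted p = 7.67e-35), and THBS1 (opposite FSIP1) by 1.14 and -2.21 (difference 3.36, adjusted p = 1.08e-46). KRR1 (opposite GLIPR1) changed by 0.71 and -2.20 (difference 2.90, adjusted p = 2.69e-35). NAXE, a repair enzyme of NAD(P)HX, changed by 0.73 and -1.78 (difference 2.51, adjusted p = 3.13e-31).

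A smaller value in U251 was found for the other 6. CCDC152 (opposite SELENOP) changed by -1.74 in U251 and 4.37 in T98G, a difference of -6.11 (SE 0.18, adjusted p = 4.70e-69). TBPL1 (opposite SLC2A12) differed by -4.43 (-1.49 against 2.94, adjusted p = 6.90e-52), and HEXIM1 (opposite HEXIM2-AS1) by -3.26 (-0.39 against 2.88, adjusted p = 2.64e-38). MTREX (opposite PLPP1) differed by -2.70 (-0.75 against 1.96, adjusted p = 4.99e-36). MT-RNR2, the large mitochondrial ribosomal RNA, differed by -2.34 (-0.52 against 1.82, adjusted p = 1.82e-41). BEST1 (opposite FTH1) differed by -1.17 (-0.27 against 0.90, adjusted p = 6.67e-35). The U251 call of BEST1 was lost without PEPD-OE replicate 2 (adjusted p = 0.107), without PEPD-OE replicate 3 (adjusted p = 0.0534), without NC replicate 1 (adjusted p = 0.0858) and without NC replicate 3 (adjusted p = 0.156), and that of HEXIM1 in each fit with a U251 library left out (adjusted p = 0.0526 to 0.288). The part of opposite partners in these differences was not tested.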

How the results depend on the processing

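Against 323 genes higher and 364 lower, the numbers were 207 and 211 with no filter on low counts, 45 and 27 with a null of up to 0.5 on the log2 scale, 116 and 116 for genes without opposite exons (a smaller set of genes tested), 125 and 178 with DESeq2, and 178 to 305 and 176 to 373 with each library left out. Lists gave as follows. ERK genes higher numbered 7, 3 with DESeq2 and 5 to 8 with a library left out. Those of the 7 that DESeq2 did not call had no adjusted p there. YAP genes higher numbered 10, 6 for genes without opposite exons, 6 with DESeq2 and 7 to 11 with a library left out. ATF4 genes higher numbered 12, 7, 6 and 8 to 12 in that order. Replication genes higher numbered 8, 2 with no filter, 3 with a filter of 1 CPM, 5 for genes without opposite exons, 1 with DESeq2 and 0 to 6 with a library left out. Nucleolar genes higher numbered 9, 5 with no filter, 5 with DESeq2 and 3 to 10 with a library left out. Interferon genes lower numbered 23, 14 with no filter, 14 for genes without opposite exons and 11 to 18 with a library left out. Mitochondrially encoded genes lower numbered 6, 10 with a replicate block and 2 to 13 with a library left out. Intermediate filaments lower numbered 5, 2 for genes without opposite exons and 4 to 5 with a library left out. Genes that differed between the lines numbered 2428, 917 for genes without opposite exons and 2116 to 2389 with a library of either line left out, an alternative chosen after the data were seen. The cause of these shifts was not tested unless named. With the replicate number as a block, 329 genes were higher and 369 lower, 698 in all against 687. Libraries of the same number had correlations of their deviations of -0.06, 0.13 and 0.03 over 3499 genes, so the numbers were not taken to pair the libraries. For the 341 named genes other than PEPD, 4839 alternative values were computed: 4354 had the same direction and side of the threshold, 455 lost the call, 30 gained one, and 0 called values reversed. Among named genes not called, the sign changed in 111 of these values. PEPD was called in each alternative run. Depth limits the text to genes above a few CPM: 3 counts equal 3.25 to 4.39 CPM.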
